A study of Homo sapiens with 16 samples.

Results

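The tumours described here grew from PC-3 cells with long telomeres that no longer carried the exogenous telomerase gene, and were set against tumours from PC-3 cells with short telomeres. They were chosen by their labels alone: 4 tumours of the line LhTERTL_cre and 4 of the line mock_cre, 8 of the 16 arrays of the study, with 20276 genes compared on each. LhTERTL_cre cells had long telomeres, had received the Cre recombinase and had no exogenous hTERT. The mock_cre cells had short telomeres, had also received Cre and had no exogenous hTERT. The other lines, used only to show where the Cre pair differs from the pair without Cre, were LhTERTL (long telomeres, exogenous hTERT present) and mock (short telomeres, exogenous hTERT absent). All 4 lines derive from PC-3, a long-established line of human prostate carcinoma that lacks functional p53. For every tumour, 1000000 cells were injected under the skin of a female nude mouse of BALB/c background aged 5 weeks, and no treatment was given. Tumours were taken at a diameter of at least 5 mm, and each group holds 4 independent tumours of 1 line. Telomere length therefore cannot be told apart from any other difference between the lines LhTERTL_cre and mock_cre, and the tests below rest on how much tumours grown from the same cells vary.

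Telomeres are the repeat arrays that cap chromosome ends, and telomerase, whose catalytic protein is encoded by TERT, lengthens them. Cre excises DNA that lies between its recognition sites, so a line can keep the telomeres it gained while losing the gene that lengthened them. The interferon response runs from secreted interferons and nucleic acid sensors through JAK kinases to a transcription factor complex that includes STAT2 and IRF9. That complex binds a promoter element, the interferon-stimulated response element (ISRE), and switches on antiviral genes and antigen presentation.

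The log2 signal of a probe set is given relative to its own median in the 16 tumours, so values show differences between tumours and give no expression level. A gene is called where limma's adjusted p over all 20276 genes was under 0.05. Of all genes, 28.0% were called, 15.0% higher and 13.0% lower in LhTERTL_cre tumours, so counts in the gene groups below are to be read against those shares. Only 2.41% were called and at least 2-fold different, 1.32% higher and 1.09% lower. The median difference over all genes was 0.02. These are bulk tumours, in which fewer cells of a type and less RNA per cell cannot be told apart. Because no levels remain, the presence of PC-3 or prostate markers could not be judged.

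A measure of RNA quality differed between the groups. As a log2 ratio, 3' over 5' signal, averaged over the array's control probe sets for GAPDH and for actin, was 0.21, -0.29, -0.15 and -0.04 in LhTERTL_cre tumours, against 0.40, 0.55, 0.41 and 1.21 in mock_cre tumours. No LhTERTL_cre array reached the lowest mock_cre array, and mock_cre tumour 4 stood apart from its group. The exact permutation p was 0.0286, two-sided, the smallest that 4 against 4 arrays can give. Once this ratio entered the model as a covariate, 3489 genes were called in place of 5678, and its part in the results was not tested. The poly-A spike signal was high in LhTERTL_cre tumour 1 and in mock_cre tumours 1 and 4, so it split both groups. Markers of host or other cell types differed by little as list averages. They were read with human probes in tumours grown in mice, so they cannot show whether the content of mouse cells was alike. Single markers differed by more, from -1.39 among the fibroblast markers to 1.71 among the adipocyte markers. Averaged over each of the 7 marker lists, the signal lay between -0.15 and 0.19 in LhTERTL_cre tumours and between -0.16 and 0.22 in mock_cre tumours. None of 14 macrophage and leukocyte markers and none of 6 erythrocyte markers was called, while 3 of 18 fibroblast, 3 of 15 endothelial, 1 of 14 muscle, 2 of 10 adipocyte and 1 of 12 keratinocyte markers were.

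TERT itself was examined first, since the comparison rests on exogenous hTERT being absent from both groups. One probe set, 1555271_a_at, read 0.30, -0.04, -0.04 and -0.18 in LhTERTL_cre tumours, against -0.57, -0.01, -0.36 and 0.24 in mock_cre tumours, and its difference of 0.19 ± 0.17 (SE) was not called (adjusted p = 0.477). The same probe set read 2.82 to 3.41 in the 4 LhTERTL tumours, which carry exogenous hTERT, and no LhTERTL_cre tumour came near that. The second probe set, 207199_at, read 0.24, 0.38, 0.37 and -0.16 in LhTERTL_cre tumours, against -0.51, 0.08, -0.27 and -0.34 in mock_cre tumours. The groups overlapped by 1 tumour each way, and the difference of 0.47 ± 0.16 (SE) was called among probe sets (adjusted p = 0.0409). In LhTERTL against mock, 207199_at was called lower (-0.58, adjusted p = 0.0181), while 1555271_a_at was called higher (3.13, adjusted p = 6.02e-09). Taken as the mean of both probe sets, TERT was 0.33 higher in LhTERTL_cre tumours and was not called (adjusted p = 0.06). That call changed when LhTERTL_cre tumour 4, mock_cre tumour 2 or mock_cre tumour 4 was left out, which gave differences of 0.42, 0.41 and 0.38, and with array weights, which gave 0.34 (adjusted p = 0.046).

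Interferon-stimulated genes fell almost as a body. Of 65 measured members, 59 were called lower and 2 higher, with a median difference of -1.45, and 46 were called at least 2-fold different. Averaged over the 65 genes, the signal was -0.83, -1.44, -0.72 and -1.04 in LhTERTL_cre tumours, against 0.62, 0.39, 0.58 and 0.24 in mock_cre tumours. The groups lay far apart, and LhTERTL_cre tumour 2 was the lowest of its group. Allowing for the 3'/5' ratio (as a covariate, here and below), 52 members were called lower and 1 higher, and without mock_cre tumour 4 the counts were again 59 and 2. Of the 50 largest falls among all genes, 25 belonged to this list, which holds 65 of the 20276 genes. The list was chosen with earlier results of these data known, so this count gives no independent support.

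The transcription factors of the response fell with their targets. IRF9, a DNA-binding subunit of the ISRE complex, read -0.73, -1.24, -0.55 and -1.32 in LhTERTL_cre tumours, against 0.41, 0.48, 0.54 and 0.54 in mock_cre tumours, a difference of -1.45 ± 0.14 (SE, adjusted p = 1.44e-06). STAT2, its partner in that complex, fell by 0.91 and IRF7, which amplifies the response, by 1.29. Among the effectors, TNFSF10, the death ligand TRAIL, had the largest fall of all 20276 genes: it read -1.56, -3.23, -1.37 and -2.50 in LhTERTL_cre tumours, against 1.60, 1.08, 1.49 and 0.67 in mock_cre tumours. Its difference was -3.37 ± 0.36 (SE, adjusted p = 3.59e-06), 10.4-fold. The tumours of the groups did not overlap for any of these genes.

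TRIM22, an antiviral TRIM protein, read -1.78, -3.66, -1.34 and -2.92 in LhTERTL_cre tumours, against 0.94, 0.66, 0.76 and 0.21 in mock_cre tumours (-3.07 ± 0.36, SE, adjusted p = 8.56e-06). IFI44L read -1.94, -2.71, -1.12 and -2.01 in LhTERTL_cre tumours, against 1.42, 0.86, 1.42 and 0.62 in mock_cre tumours (-3.03 ± 0.26, SE, adjusted p = 3.86e-07). BST2, the tetherin that holds budding viruses at the cell surface, read -1.47, -2.52, -1.44 and -2.72 in LhTERTL_cre tumours, against 0.66, 0.58, 1.15 and 0.43 in mock_cre tumours (-2.74 ± 0.27, SE, adjusted p = 1.4e-06). In all 3 genes every LhTERTL_cre tumour lay below every mock_cre tumour. OAS1, whose product activates RNase L, fell by 2.57, RSAD2 (viperin, an inhibitor of viral replication) by 2.54 and IFI44 by 2.49. All 4 members of the OAS family and all 4 of the IFIT family were called lower, with medians of -2.02 and -1.79. The 5 PARP and DTX genes also fell, among them PARP12 by 1.82, the gene of the list with the smallest adjusted p (1.05e-07). ISG15, the ubiquitin-like modifier, fell by 1.65.

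The exceptions within the list were few, and they were chosen for mention after their values were seen. ISG20, an RNA exonuclease, read 0.23, -0.15, 0.07 and 0.26 in LhTERTL_cre tumours, against -0.81, -0.56, -0.56 and -0.58 in mock_cre tumours, and rose by 0.73 ± 0.13 (SE, adjusted p = 0.000333). IFI16, a DNA sensor, rose by 0.84 ± 0.21 (SE, adjusted p = 0.00535), but was not called when the ratio was allowed for (0.48, adjusted p = 0.329) or from its most variable probe set alone (adjusted p = 0.118). MX1, a classical antiviral GTPase, read -0.50, -1.89, -0.64 and -1.13 in LhTERTL_cre tumours, against -0.22, -0.46, -0.995 and -0.65 in mock_cre tumours. Those groups overlapped, and its difference of -0.46 was not called (adjusted p = 0.25), although it was after quantile normalization (adjusted p = 0.047). With 1 array left out the MX1 difference ranged from -0.64, without LhTERTL_cre tumour 1, to -0.17, without LhTERTL_cre tumour 2. Its paralogue MX2 fell by 0.72 (adjusted p = 0.0074), a call lost when the ratio was allowed for (-0.59, adjusted p = 0.201) and within the arrays of low spike signal (-0.69, adjusted p = 0.0801). TRIM5, TRIM25 and DHX58, the other 3 members without a call, differed by -0.32, -0.12 and -0.04. TRIM5 was called lower after quantile normalization (adjusted p = 0.0254) and when the 8 arrays were fitted alone (adjusted p = 0.0439).

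Upstream genes did not move as a body: of 20 genes for ligands, receptors and sensors, 3 were called higher and 7 lower, or 3 and 3 allowing for the 3'/5' ratio. None of the 6 interferon ligand genes measured was called. Of the 8 genes listed as receptors and kinases, 4 were called lower and none higher, against 13.0% of all genes called lower. TLR3, a receptor for double-stranded RNA, read -0.56, -1.29, -0.97 and -0.89 in LhTERTL_cre tumours, against 1.21, 0.75, 1.11 and 0.82 in mock_cre tumours, and fell by 1.90. Of the 6 nucleic acid sensing genes in this list, 3 rose and 3 fell. IRF3, the factor that switches on interferon genes, fell by 0.36 (adjusted p = 0.00287, or 0.069 allowing for the ratio). TBK1, the kinase that activates it, fell by 0.30 (adjusted p = 0.028), a call lost within the arrays of low spike signal (adjusted p = 0.138) and without LhTERTL_cre tumour 1 or 2 or mock_cre tumour 1, 2 or 3 (adjusted p from 0.0505 to 0.106). The 3 that rose were MAVS, the adaptor of the RNA sensors, by 0.62 ± 0.08 (SE, adjusted p = 1.81e-05), CGAS, which detects cytosolic DNA, by 0.49 (not called when only plain probe set identifiers were kept, adjusted p = 0.166), and STING1, its downstream adaptor, by 0.38.

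The promoters of these genes were then read. The ISRE core searched was 2 copies of GAAA separated by any 2 bases, on both strands, in the RefSeq promoter window of 250 bases before to 50 bases after the gene start (GRCh38.p14). It occurred in 61.5% of the 52 interferon-list promoters held in that table, against 2.98% of the 14944 promoters of all measured genes. The list was compiled from genes known to respond to interferon, so the share is a description. Among promoters of genes called at least 2-fold lower but not on the list, 10 of 122 (8.20%) held the core, against 3 of 204 (1.47%) among genes called at least 2-fold higher. Of the 9 promoters available for the 12 largest falls, 5 held it, and of the 7 available for the 12 largest rises, none did. The sequences below are the 130 bases before the start of strongly lowered genes, written on the gene's own strand with the core, on either strand, in capitals. LRRC31 is not on the interferon list and is shown because it is among the 12 largest falls and holds the core.
IFI44L, chr1:78620318-78620447: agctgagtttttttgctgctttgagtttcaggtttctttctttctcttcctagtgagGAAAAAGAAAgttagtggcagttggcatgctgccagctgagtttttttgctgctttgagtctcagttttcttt
BST2, chr19:17405631-17405760, minus strand: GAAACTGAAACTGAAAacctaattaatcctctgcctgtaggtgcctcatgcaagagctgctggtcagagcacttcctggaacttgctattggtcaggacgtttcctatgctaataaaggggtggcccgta
IFI44, chr1:78649659-78649788: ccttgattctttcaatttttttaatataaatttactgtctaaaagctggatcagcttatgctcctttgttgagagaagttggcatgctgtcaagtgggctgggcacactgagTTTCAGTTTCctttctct
HERC5, chr4:88456989-88457118: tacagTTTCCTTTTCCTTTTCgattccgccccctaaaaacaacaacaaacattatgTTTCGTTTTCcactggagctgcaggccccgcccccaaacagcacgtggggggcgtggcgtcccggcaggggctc
LRRC31, chr3:169869936-169870065, minus strand: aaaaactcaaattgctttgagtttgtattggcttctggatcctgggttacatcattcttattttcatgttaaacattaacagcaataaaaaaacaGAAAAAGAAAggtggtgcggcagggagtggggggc
In BST2 the cores overlap in a run of 3 GAAA units, and the HERC5 window (HERC5 ligates ISG15 to proteins) holds 3 cores, of which an overlapping pair lies farthest upstream. HERC5 fell by 2.46 in LhTERTL_cre tumours and LRRC31 by 2.48. A match of letters is a description and shows no binding.

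MHC class I presentation fell as well, by smaller amounts. Of 19 measured members 17 were called lower and none higher, with a median of -0.64. Allowing for the 3'/5' ratio, 10 were called lower. All 7 class I chain genes were called. HLA-C read -0.93, -1.42, -0.89 and -1.04 in LhTERTL_cre tumours, against 0.30, 0.27, 0.29 and 0.09 in mock_cre tumours, and fell by 1.31 ± 0.16 (SE, adjusted p = 1.39e-05). B2M, the invariant light chain, fell by 1.03, NLRC5, the transactivator of class I genes, by 1.25, PSMB9 of the immunoproteasome by 1.20 and the peptide transporter subunit TAP1 by 0.98. The class I chain genes are near-identical in places, so their probe sets may share signal. The ISRE core was present in 9 of the 16 class I presentation promoters held in the table (56.2%).

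**Figure D1:**
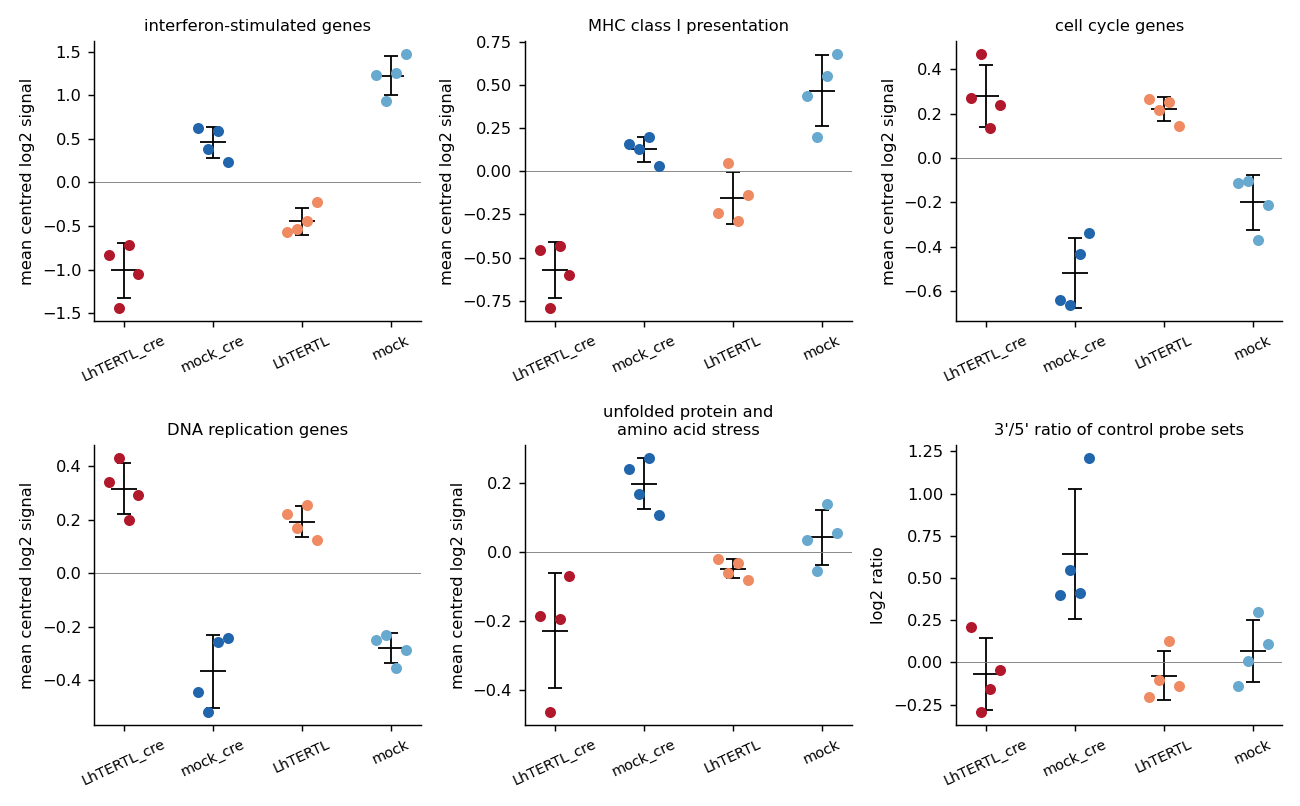
Mean centred log2 signal over the members of 5 gene lists, and the log2 3'/5' ratio of the control probe sets, in each tumour of the lines LhTERTL_cre, mock_cre, LhTERTL and mock. Points are tumours, and bars are the mean and SD of 4. Interferon-stimulated genes lie between -1.44 and -0.72 in LhTERTL_cre tumours and between 0.24 and 0.62 in mock_cre tumours, and the control ratio also separates these groups.

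NF-kB targets and death receptor genes did not move as a body. Of 29 NF-kB targets and cytokines, 9 were called lower and none higher, with a median of -0.08, and 4 were called lower once the ratio was allowed for. ICAM1, a leukocyte adhesion receptor, fell by 0.76 and BIRC3, an inhibitor of apoptosis, by 1.15, while no NF-kB subunit gene was called. Of 26 death receptor and apoptosis genes, 9 were called higher and 6 lower, or 4 and 5 allowing for the ratio. In contrast to the TRAIL ligand TNFSF10, its receptor gene TNFRSF10A read 0.10, 0.10, 0.02 and 0.06 in LhTERTL_cre tumours, against -0.43, -0.38, -0.26 and -0.45 in mock_cre tumours, and rose by 0.45. BCL2A1, an anti-apoptotic BCL2 relative, read 0.70, 0.83, 0.45 and -0.58 in LhTERTL_cre tumours, against -1.82, -1.31, -2.20 and -2.08 in mock_cre tumours. It rose by 2.20 ± 0.26 (SE, adjusted p = 7.62e-06), and the groups did not overlap although LhTERTL_cre tumour 4 lay well below the rest of its group.

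Genes of cell division rose in LhTERTL_cre tumours. Of 40 cell cycle genes 35 were called higher and none lower, with a median of 0.77, and of 33 DNA replication genes 31 were called higher and none lower, with a median of 0.67. Allowing for the 3'/5' ratio, the counts were 27 and 28. Averaged over the cell cycle list, every LhTERTL_cre tumour lay above every mock_cre tumour. All 10 spindle and kinetochore genes were called, with a median of 1.17. TTK, a spindle checkpoint kinase, read 0.75, 0.81, 0.30 and 0.53 in LhTERTL_cre tumours, against -1.21, -1.46, -1.15 and -0.75 in mock_cre tumours (1.74 ± 0.13, SE, adjusted p = 1.04e-07). CDK1, the kinase that drives entry into mitosis, read 0.45, 0.61, 0.29 and 0.21 in LhTERTL_cre tumours, against -0.75, -1.11, -0.80 and -0.97 in mock_cre tumours (1.30 ± 0.11, SE, adjusted p = 2.93e-07). PBK, a mitotic kinase, rose by 1.56, CCNE2, a cyclin of the G1 to S transition, by 1.33 and KIF11, a spindle motor, by 1.26.

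In the replication machinery, GINS1, a subunit of the replicative helicase complex, read 0.53, 0.69, 0.41 and 0.36 in LhTERTL_cre tumours, against -1.05, -1.05, -0.86 and -0.77 in mock_cre tumours. Its rise of 1.43 ± 0.09 (SE) had one of the smallest adjusted p values of all genes (1.87e-08). PCNA, the sliding clamp, read 0.29, 0.40, 0.15 and 0.20 in LhTERTL_cre tumours, against -0.79, -0.95, -0.77 and -0.75 in mock_cre tumours, a rise of 1.07 ± 0.07 (SE, adjusted p = 3.24e-08). TYMS, which makes thymidylate, rose by 1.23 and RFC3, a subunit of the clamp loader, by 0.84. All 6 genes of nucleotide supply were called higher. Many of these genes are known targets of E2F factors. The E2F motifs searched, TTTCCCGC, TTTGGCGC and TTTCGCGC on both strands, occurred in 16 of 30 replication promoters (53.3%) and in 5 of 31 cell cycle promoters (16.1%), against 3.84% of all 14944. They occurred in 12 of the 204 promoters of genes called at least 2-fold higher (5.88%) and in 9 of the 159 of genes called at least 2-fold lower (5.66%). Windows of 130 bases before the start of 3 replication genes are given with the motif in capitals, on the gene's own strand (RefSeq, GRCh38.p14).
PCNA, chr20:5126623-5126752, minus strand: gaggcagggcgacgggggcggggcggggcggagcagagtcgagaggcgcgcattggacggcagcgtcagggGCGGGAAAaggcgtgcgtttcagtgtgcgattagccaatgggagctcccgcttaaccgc
RFC3, chr13:33818019-33818148: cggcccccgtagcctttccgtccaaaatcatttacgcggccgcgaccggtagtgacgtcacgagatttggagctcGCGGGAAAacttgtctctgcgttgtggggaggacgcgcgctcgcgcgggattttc
TYMS, chr18:657523-657652: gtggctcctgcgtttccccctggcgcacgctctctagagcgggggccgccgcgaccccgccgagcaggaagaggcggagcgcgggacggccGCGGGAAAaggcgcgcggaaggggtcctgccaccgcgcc
In each of the 3 windows the match is GCGGGAAA, the reverse complement of TTTCCCGC, and it begins 59 bases before the start in PCNA, 55 in RFC3 and 39 in TYMS.

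DNA repair genes rose in part: 14 of 31 were called higher and 1 lower, with a median of 0.22. Allowing for the 3'/5' ratio, 10 were called higher and 1 lower and the median was 0.11, and without mock_cre tumour 2 the median was 0.14. CHEK1, the checkpoint kinase activated by stalled forks, read 0.97, 0.99, 0.60 and 0.76 in LhTERTL_cre tumours, against -0.57, -1.24, -0.60 and -0.67 in mock_cre tumours, and rose by 1.60 ± 0.15 (SE, adjusted p = 9.67e-07). EXO1, an exonuclease of resection and mismatch repair, rose by 1.17 and RAD50, of the complex that senses broken ends, by 1.08. Replication-linked histone genes went the other way from the replication genes: 9 of 11 were called lower and 1 higher. Of all 16 histone genes, 3 were called higher and 4 lower when the ratio was allowed for. Without overlap of the groups 3 of the 16 lay higher and 4 lower, against 13.0% and 11.5% of all genes. How fully the arrays capture histone transcripts was not tested. H2BC21 was the largest of these falls at 1.54, with values of -0.56, -1.45, -0.07 and 0.21 in LhTERTL_cre tumours and of 1.09, 0.81, 1.29 and 1.08 in mock_cre tumours.

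Genes of telomere maintenance changed by small amounts. Of 26 measured members 7 were called higher and 3 lower, and the median was 0.14. The called share of 38.5% stood beside 28.0% of all genes, and the counts ranged from 2 higher and 1 lower within the arrays of low spike signal to 11 higher and 3 lower without mock_cre tumour 4, with 6 higher and none lower when the 3'/5' ratio was allowed for. DCLRE1B (Apollo), a nuclease that processes telomere ends, rose by 0.40 ± 0.07 (SE, adjusted p = 0.000447). WRAP53, which brings telomerase to Cajal bodies, rose by 0.27, and within the arrays of low spike signal its difference was 0.23 and not called (adjusted p = 0.0792). No change in this list reached 2-fold. Of 7 genes that earlier work linked to telomere length at a distance, 4 were called lower and none higher, led by ISG15 and DSP. ISG15 is also on the interferon list. Allowing for the 3'/5' ratio, 2 were called lower, and in LhTERTL against mock 2 of the 7 were called higher and 2 lower. TERT, of which LhTERTL carries an exogenous copy, is on this list and was among those called higher there. The total called share showed no gradient towards chromosome ends: 28.5% of the 460 genes ranked within 10 of an end of the gene order were called, against 28.6% of the 14602 genes beyond rank 100. Direction was less even. Within rank 10, 16.1% were called higher and 12.4% lower, and at ranks 51 to 100, 18.7% and 10.5%. Beyond rank 100 these shares were 14.8% and 13.8%, and the difference was not tested.

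**Figure D2:**
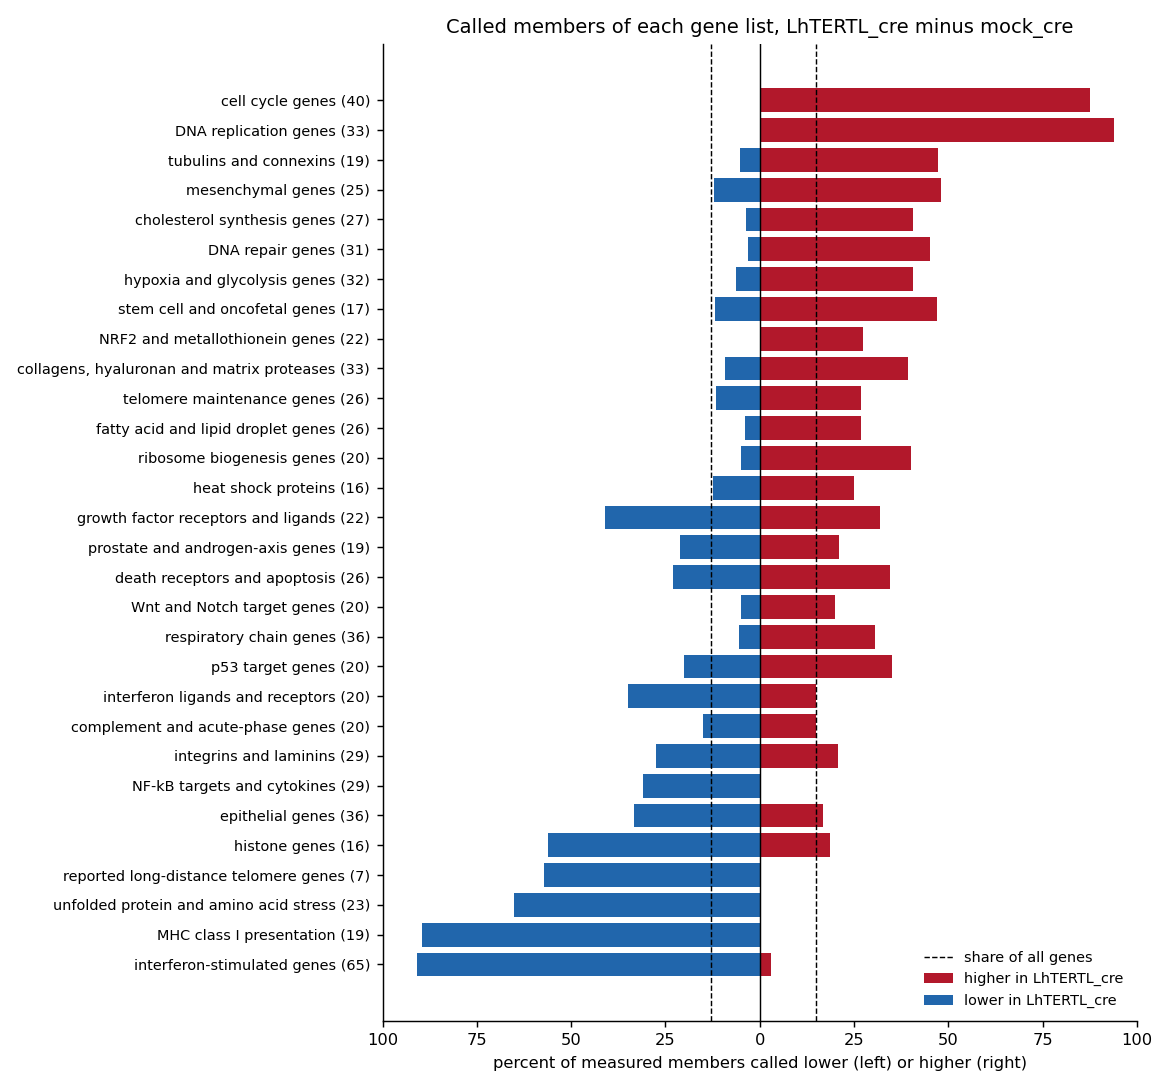
Percent of the measured members of each of 30 gene lists called higher (right) or lower (left) in LhTERTL_cre than in mock_cre tumours, ordered by median difference, with the number of measured members in brackets. Dashed lines mark the shares over all genes, 15.0% higher and 13.0% lower. Cell cycle and DNA replication genes stand at the upper end and MHC class I and interferon-stimulated genes at the lower end.

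The largest rises came from genes outside these programmes. EPB41L3, a linker between membrane proteins and the cytoskeleton, read 1.60, 1.37, 1.57 and 2.04 in LhTERTL_cre tumours, against -3.42, -2.35, -4.16 and -3.24 in mock_cre tumours. Its difference of 4.93 ± 0.39 (SE, adjusted p = 1.98e-07), 30.6-fold, was the largest rise of all 20276 genes. HSD17B2, which inactivates oestradiol and testosterone, read 1.80, 1.68, 1.94 and -0.77 in LhTERTL_cre tumours, against -3.27, -2.65, -3.67 and -3.84 in mock_cre tumours (4.52 ± 0.45, SE, adjusted p = 1.51e-06). Both genes were picked from those without overlap of the groups, but LhTERTL_cre tumour 4 had much the lowest HSD17B2 signal of its group.

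Tumour 4 was the lowest LhTERTL_cre tumour in 8 of the 12 largest rises, and tumour 2 the lowest in 10 of the 12 largest falls. HAS2, the main hyaluronan synthase, shows the first pattern: it read 2.15, 2.31, 2.15 and 0.21 in LhTERTL_cre tumours, against -1.72, -1.66, -2.06 and -1.74 in mock_cre tumours, and rose by 3.50 ± 0.33 (SE, adjusted p = 1.15e-06). FBXL7, a substrate receptor of a ubiquitin ligase, rose by 3.22, PRTFDC1, a relative of purine salvage enzymes, by 3.11 and LYPD1, a surface protein that modulates nicotinic receptors, by 2.64, and LhTERTL_cre tumour 4 was lowest in each.

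The trefoil factors, small secreted peptides that protect mucosal surfaces, rose together, and their genes lie side by side. TFF3 read 1.70, 1.09, 1.52 and 0.42 in LhTERTL_cre tumours, against -2.52, -2.30, -2.68 and -1.96 in mock_cre tumours (3.55 ± 0.23, SE, adjusted p = 3.29e-08). TFF2 read 0.24, 0.94, 0.75 and -0.22 in LhTERTL_cre tumours, against -2.64, -2.60, -2.52 and -2.36 in mock_cre tumours (2.95 ± 0.20, SE, adjusted p = 5.61e-08). TFF1, named after its value was seen as their neighbour, rose by 2.25. TFF3 and TFF2 were picked as rises without overlap of the groups, and mock_cre tumours lay close together in both. Among the rest, ANXA10, an annexin of gastric epithelium, rose by 3.11, TUBB6, a beta-tubulin isotype, by 2.99 and UTS2, the precursor of a vasoactive peptide, by 2.91. LOC100288985, an uncharacterised locus, rose by 3.09. Of the 24 largest rises and falls, 23 had a place in the gene order, with 41 different genes outside the 24 next to them. Of the 41, 10 were called the same way as their neighbour, among them an OAS family gene beside OAS1. Over all genes, 15.0% were called higher and 13.0% lower.

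**Figure D3:**
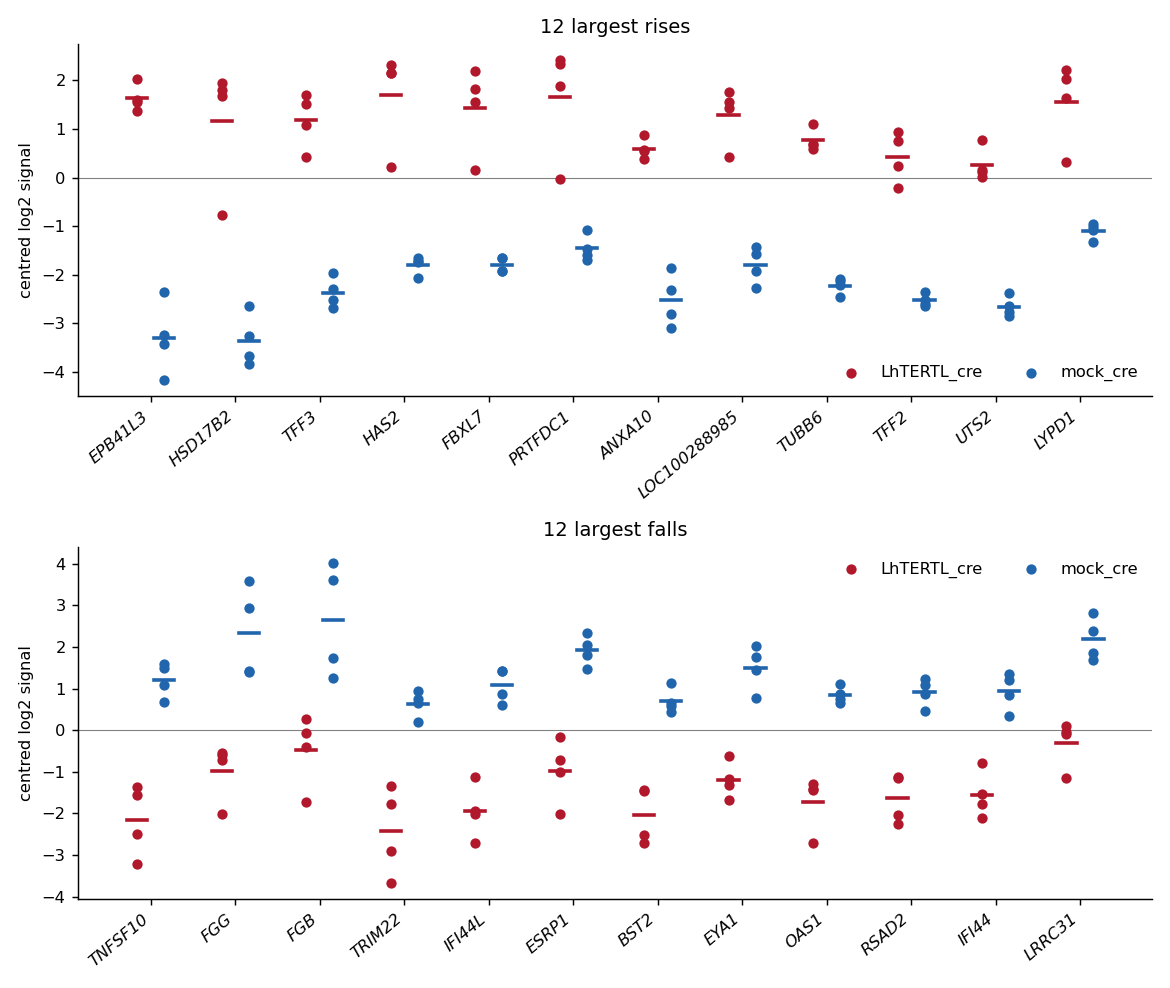
Centred log2 signal in each tumour for the 12 largest rises (top) and the 12 largest falls (bottom), with LhTERTL_cre tumours left of mock_cre tumours for each gene and horizontal lines at the means of 4. The 24 genes were picked among those whose groups do not overlap, which holds for 24.4% of all genes. LhTERTL_cre tumour 4 accounts for the lowest LhTERTL_cre point in 8 of the 12 rises.

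Among the largest falls outside the interferon programme were genes of the fibrinogen complex. FGG, the gamma chain, read -0.61, -2.02, -0.54 and -0.72 in LhTERTL_cre tumours, against 2.94, 1.42, 3.60 and 1.39 in mock_cre tumours (-3.31 ± 0.57, SE, adjusted p = 0.000308). FGB, the beta chain, read -0.41, -1.73, -0.07 and 0.28 in LhTERTL_cre tumours, against 3.62, 1.26, 4.03 and 1.73 in mock_cre tumours (-3.14 ± 0.75, SE, adjusted p = 0.00426). Tumours 1 and 3 were the highest mock_cre tumours in both, and FGB was no longer called once the 3'/5' ratio was allowed for (adjusted p = 0.069), although its difference was then -3.32. FGA, the alpha chain gene that lies between them, differed by 0.03 and was not called (adjusted p = 0.796). EYA1, a developmental coactivator and phosphatase, read -1.69, -1.31, -1.19 and -0.61 in LhTERTL_cre tumours, against 1.76, 0.78, 2.02 and 1.45 in mock_cre tumours, and fell by 2.70 ± 0.36 (SE, adjusted p = 2.98e-05).

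Epithelial genes leaned lower and mesenchymal genes higher, with many exceptions. Of 36 epithelial genes 12 were called lower and 6 higher (median -0.17), and these became 3 and 5 (median -0.06) once the 3'/5' ratio was allowed for. ESRP1, a splicing regulator that maintains epithelial isoforms, read -1.01, -2.02, -0.71 and -0.17 in LhTERTL_cre tumours, against 2.06, 1.48, 2.34 and 1.81 in mock_cre tumours, and fell by 2.90 ± 0.45 (SE, adjusted p = 0.000117). MARVELD2 (tricellulin), which seals tricellular junctions, fell by 1.25 and the desmosomal plaque protein DSP by 1.93. EPCAM, an epithelial adhesion protein, fell by 1.34 and CDH1 (E-cadherin) by 0.75, but neither was called once the ratio was allowed for (adjusted p = 0.208 and 0.271) or within the arrays of low spike signal (adjusted p = 0.0622 and 0.128). CDH1 was also not called when LhTERTL_cre tumour 1 or 2 or mock_cre tumour 1 or 3 was left out (adjusted p from 0.0597 to 0.0932, differences from -0.71 to -0.47). Other desmosomal genes did the reverse: DSC2, a desmosomal cadherin, read 0.64, 0.48, 0.49 and -0.04 in LhTERTL_cre tumours, against -1.78, -1.99, -1.86 and -1.63 in mock_cre tumours, and rose by 2.21 ± 0.16 (SE, adjusted p = 1.05e-07).

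Of 25 mesenchymal genes 12 were called higher and 3 lower (median 0.28). VIM (vimentin) read -0.01, 0.62, 0.43 and 0.17 in LhTERTL_cre tumours, against -0.60, -0.49, -0.59 and -0.57 in mock_cre tumours, and rose by 0.87 ± 0.12 (SE, adjusted p = 4.94e-05). SNAI2, a repressor of epithelial genes, rose by 1.12 and GNG11, a G protein subunit gene, by 2.17. LOX, which crosslinks collagen, fell by 1.64. Collagen genes rose in 7 of 12 cases and fell in none.

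**Figure D4:**
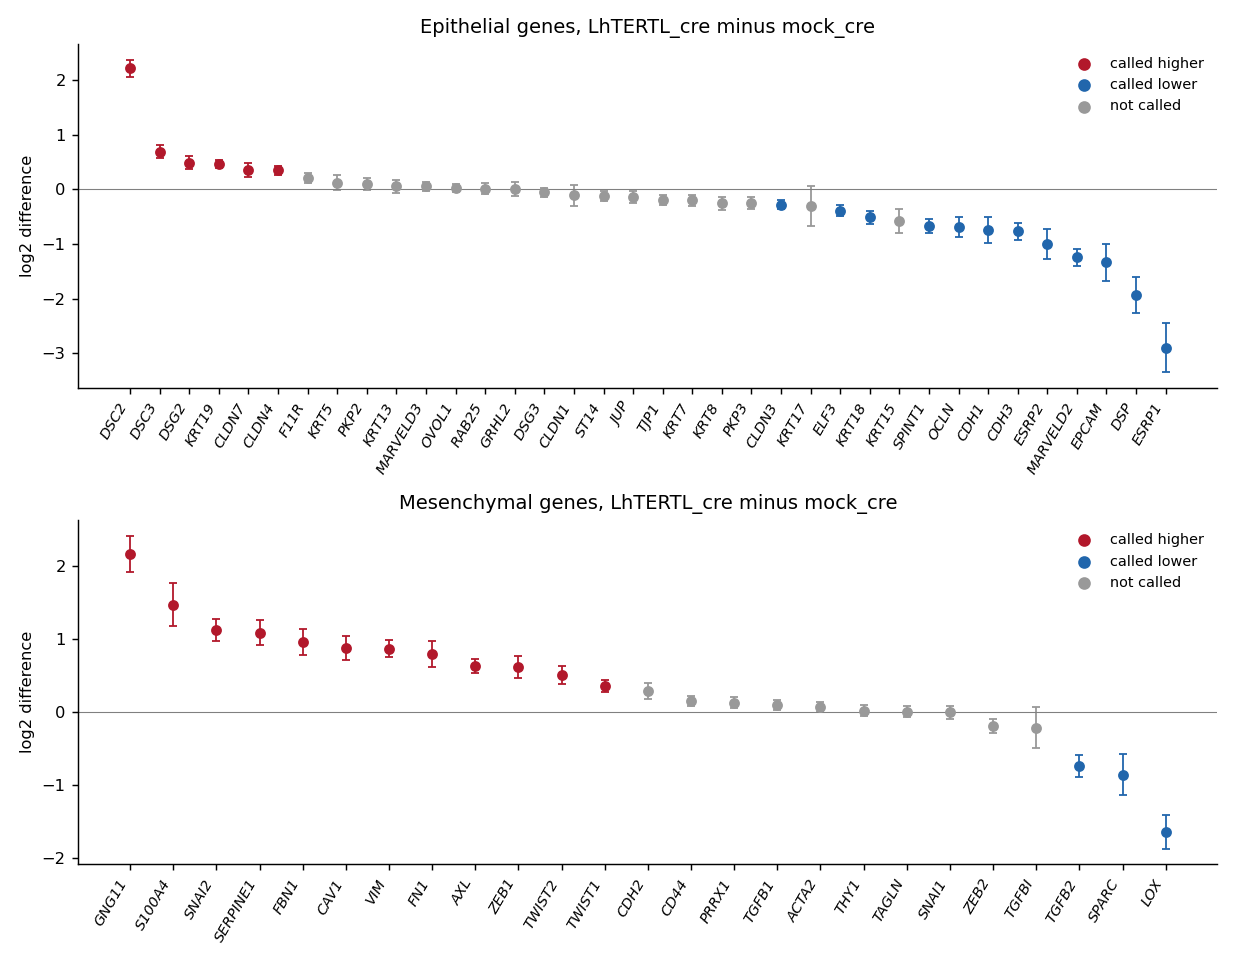
Log2 difference, LhTERTL_cre minus mock_cre, for the members of the epithelial list (top) and the mesenchymal list (bottom), with the SE from limma as bars and colour for the call. ESRP1 at -2.90 and DSC2 at 2.21 are the ends of the epithelial list.

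Stress and metabolic programmes moved by less. In the list for unfolded protein and amino acid stress, 15 of 23 genes were called lower and none higher, with a median of -0.39, and 9 were called lower once the ratio was allowed for. ATF4, the central factor of amino acid stress, read -0.07, -0.29, -0.07 and 0.00 in LhTERTL_cre tumours, against 0.38, 0.53, 0.56 and 0.42 in mock_cre tumours, and fell by 0.58 ± 0.08 (SE, adjusted p = 2.32e-05). XBP1, a factor of the unfolded protein response, fell by 0.52, the ATF4 target TRIB3 by 0.74 and CEBPB, a basic leucine zipper factor, by 0.94. Glycolysis genes rose in 11 of 19 cases and fell in none, with PFKFB3, which makes an activator of glycolysis, up by 1.07. Of 13 hypoxia targets, 2 were called higher and 2 lower, with a median of 0.08. Among the lower ones ADM, a vasodilator peptide, fell by 1.14. Cholesterol synthesis genes were higher in 11 of 27 cases and lower in 1, with ACAT2, of the first step, up by 1.34. FABP4, a fatty acid carrier, read 0.87, 0.72, 1.06 and 0.74 in LhTERTL_cre tumours, against -1.03, -0.89, -0.88 and -0.64 in mock_cre tumours, and rose by 1.71 ± 0.12 (SE, adjusted p = 9.93e-08). Among prostate genes 4 of 19 were called in each direction, or 3 higher and 2 lower allowing for the ratio. Their differences ran from -1.42 to the 1.47 of HOXB13, a prostate lineage factor. Of the 9 genes listed for prostate lineage, 1 was called higher and 3 lower. No metallothionein gene of 7 was called.

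The same telomere contrast with exogenous hTERT present in the long-telomere line, LhTERTL against mock, shares no array with the Cre pair. Of the genes called in the Cre pair, 2016 (35.5%) were called with the same sign in the pair without Cre, which is 49.0% of that pair's calls. That pair called 20.3% of all genes, 12.3% higher and 7.99% lower. A further 221 were called with opposite signs. The interferon list was lower in both, with 59 of 65 members called lower in the Cre pair and 61 in the pair without Cre (medians -1.45 and -1.81). The cell cycle list had 35 and 23 members called higher (medians 0.77 and 0.45). For the unfolded protein list the counts lower were 15 and 4, and the difference between the pairs was itself called, negative, for 8 of its 23 members.

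Tests of the difference between the pairs called 2152 genes, 10.6% of all, 4.99% with a positive and 5.63% with a negative difference. Their largest positive value was that of HSD17B2 at 4.19 ± 0.64 (SE, adjusted p = 0.000575): it rose by 4.52 in the Cre pair, while its difference in the pair without Cre was 0.33 and not called. TFF2 and ANXA10 also had positive differences between the pairs, of 2.78 and 2.54, as did BCL2A1 at 2.87. PLAT, the tissue plasminogen activator, had 2.48: it rose by 1.15 in the Cre pair, a call lost allowing for the 3'/5' ratio (adjusted p = 0.223) and within the arrays of low spike signal (adjusted p = 0.146), and fell by 1.33 in the pair without Cre. The largest negative values were those of FGG, EYA1 and ESRP1, at -3.90, -3.84 and -3.81, followed by FGB at -3.57 and the keratin gene KRT75 at -3.19. KRT75 fell by 1.72 in the Cre pair, a call lost allowing for the ratio (adjusted p = 0.179), and rose by 1.47 in the pair without Cre. EYA1 fell by 2.70 in the Cre pair and rose by 1.14 in the pair without Cre, both called, and EPCAM and CDH1 also had called differences of opposite sign. Within the interferon list the difference between the pairs was called for 13 of 65 members, 11 positive and 2 negative. MX1 and ISG20 were among the positive ones, at 1.81 and 2.11: in the pair without Cre MX1 fell by 2.26 and ISG20 fell by 1.38. The chemokine genes CXCL10 and CXCL11 were the negative ones, at -1.28 and -1.68, with falls of 1.45 and 2.13 in the Cre pair and no call in the pair without Cre. These were named after their values were seen.

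**Figure D5:**
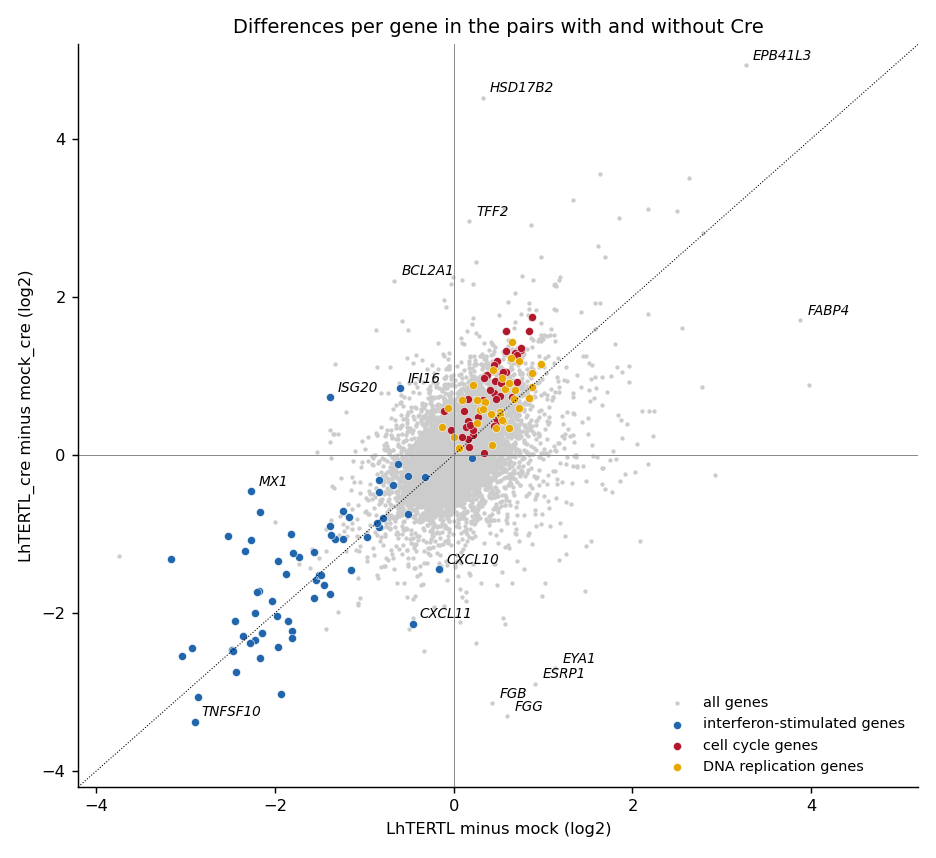
Log2 difference of every gene in LhTERTL_cre minus mock_cre (vertical) and in LhTERTL minus mock (horizontal), with the interferon, cell cycle and replication lists coloured and the dotted line marking equal differences. The interferon genes extend along the line to the lower left, MX1 and ISG20 lie above it, and HSD17B2 at 4.52 against 0.33 and FGG at -3.31 against 0.60 lie far from it.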

How the data were processed

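RNA of 16 xenograft tumours was measured on Affymetrix arrays, 1 per tumour, from 100 ng of total RNA, per the labels' protocols. The deposited values are log2 signals made with RMA by the authors, per the submitters' processing notes; the genome build and probe annotation version are not given in the sources used here. In the deposited log2 table every probe set is centred on its median over the 16 arrays, as its values show, and a second deposited table held the same values. Of 54675 probe sets, the 41476 that named exactly 1 gene were averaged per gene, 10 probe sets of 6 identifiers with a shared symbol were left out, and 20276 genes remained, of which 19249 matched RefSeq names.

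Tests used limma 3.58.1 (R 4.3.3): a linear model with a mean for each of the 4 lines, moderated variances, two-sided tests and Benjamini-Hochberg adjustment at 0.05. The difference between the pairs is LhTERTL_cre minus mock_cre minus the same for LhTERTL and mock. Between arrays the SD of differences was 0.207 to 0.296 within LhTERTL_cre, 0.197 to 0.248 within mock_cre and 0.328 to 0.494 between them. In simulated data, 75.8% of changes of 0.5 and 97.6% of changes of 1 were recovered for this comparison, and 7.8 of 20276 genes per round were false calls. Each round changed 200 genes and drew independent noise for every gene. It held no correlated genes and no 3'/5' difference between the groups, so these figures may not hold for the tumours.

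The members, the 30 gene lists and 7 marker lists were chosen with earlier results of these data known, so their counts give no independent support. Not measured were TERC, FRG2, POU5F1, IGF2, NDUFA4, HSPA1B, H3-3A, C4A, SAA1, SAA2, FCGR3A, MRC1, HBA1 and HBA2. The rule for named genes picked the 12 largest rises and the 12 largest falls called without overlap of the groups and without a called probe set of opposite sign, the 5 largest positive and negative differences between the pairs, from each list up to 4 members by smallest adjusted p, and TERT. Of the 151 genes it picked, the text names 65, with all the picked rises, falls and differences between the pairs among them, and leaves out other list members for length; 1 is not reported here. A further 29 named genes lie outside the rule and were chosen after their values were seen. Alternatives covered gene values, normalization, thresholds, variance models, array weights, array controls, a replicate block and leaving out each array. Whether the array numbers pair tumours was checked by correlating their deviations from the group means. Array signal has no depth, and the number of arrays limits the precision. Python 3.11.15 (pandas 2.3.3, matplotlib 3.10.9) produced the tables and plots.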

Additional observations from a re-analysis of the deposited data

Results flagged for a closer look

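Single tumours stood apart from the other 3 of their group, by Dixon's test at 4 values, in 18 of 266 groups looked at, and chance marks about 1 in 20 such groups. LhTERTL_cre tumour 2 was low for OAS1 (-2.72, median of the group -1.43), HERC5 (-2.41, median -1.45), FGG (-2.02, median -0.66) and LRRC31 (-1.15, median -0.07). LhTERTL_cre tumour 4 was low for HSD17B2 (-0.77, median 1.74), HAS2 (0.21, median 2.15) and PFKFB3 (-0.0828, median 0.40). Among mock_cre tumours, tumour 2 was low for BIRC3 (-0.29) and CHEK1 (-1.24), tumour 4 for HLA-C (0.0918) and TAP1 (-0.12), and tumour 1 for ISG20 (-0.81). Of the list means, LhTERTL_cre tumour 1 was high for cholesterol synthesis (0.18) and low for mesenchymal genes (0.00653), and LhTERTL_cre tumour 2 was low for stem cell and oncofetal genes (0.0473). The mean of mock_cre tumour 4 was high for tubulins and connexins (-0.25), and that of mock_cre tumour 2 was high for keratinocyte markers (0.22). The poly-A spike signal of LhTERTL_cre tumour 1 was 1.84, against a median of -0.11 in its group.

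The difference between the Cre pair and the pair without Cre passed its own test (limma, adjusted p under 0.05) for 57 of the 94 named genes, and for 10.6% of all genes. The named genes include the 5 largest positive and 5 largest negative differences called in this same test. A further 29 were chosen after their values were seen, so the count of 57 does not estimate how common such differences are. For TERT, as the mean of 2 probe sets, it was -0.945, with LhTERTL carrying exogenous hTERT. By probe set it was -2.94 for 1555271_a_at (adjusted p = 3.93e-06) and, with the opposite sign, 1.05 for 207199_at (adjusted p = 0.00845). In the interferon and antigen groups it was 1.81 for MX1, 1.45 for MX2, 2.11 for ISG20, 1.44 for IFI16, 0.49 for MAVS, 0.42 for CGAS and 0.51 for TRIM25, all positive, and -1.28 for CXCL10 and -1.68 for CXCL11, and -0.392 for IRF3. Death receptor and NF-kB genes gave 2.87 for BCL2A1, 0.82 for TNFRSF10A and -0.60 for ICAM1. Genes of division, replication and repair gave positive values: 0.98 for PBK, 0.87 for TTK, 0.60 for CDK1, 0.58 for CCNE2, 0.55 for KIF11, 0.78 for GINS1, 0.63 for PCNA, 0.59 for TYMS, 0.93 for CHEK1, 0.51 for EXO1, 0.77 for RAD50 and 0.45 for DCLRE1B. Among the large rises it was 4.19 for HSD17B2, 1.07 for TFF1, 2.78 for TFF2, 1.91 for TFF3, 2.54 for ANXA10, 1.89 for FBXL7, 1.15 for TUBB6, 2.05 for UTS2, 1.5 for NEFL, 2.48 for PLAT and 1.53 for AK5. Among the large falls it was -3.90 for FGG, -3.57 for FGB, -3.84 for EYA1, -3.81 for ESRP1, -3.19 for KRT75 and -2.15 for LRRC31. Epithelial and mesenchymal genes gave 1.03 for DSC2, -1.06 for MARVELD2, -1.70 for DSP, -2.52 for EPCAM, -1.65 for CDH1, 1.95 for GNG11, 1.17 for SNAI2, 0.85 for VIM and -1.27 for LOX. Stress and metabolic genes gave -0.51 for ATF4, -0.39 for XBP1, -1.27 for ADM, 0.54 for PFKFB3 and -2.18 for FABP4; FABP4 rose in both pairs, by 1.71 in the Cre pair and by 3.88 in the pair without Cre.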

How the results depend on the processing

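The count of genes called in LhTERTL_cre against mock_cre was 5678 and the count called in the difference between the pairs was 2152. Past a factor of 1.5, the first fell to 3489 when the 3'/5' ratio was a covariate (974 in the difference between the pairs), to 1638 with limma's treat against a log2 difference of 0.25 (485), and to 3693 within the arrays of low spike signal, a setting added after seeing the data. The count in the difference between the pairs was 953 at an adjusted p under 0.01 and 3339 with array weights. Leaving out each array gave 4598 to 6017 genes for the Cre pair and 1544 to 2721 for the difference between the pairs. The 3'/5' ratio difference of -0.71 ranged from -0.81 to -0.52 with an array left out, where 3 against 4 arrays cannot give an exact p below 0.0571. Whether equal array numbers pair the tumours was not settled: nothing in the labels ties them, and the deviations of same-numbered tumours correlated by 0.188, 0.262, 0.255 and 0.0153, 3 of 4 over 0.1. The replicate block gave 5709 genes, or 2179 in the difference between the pairs, and 6 of the 8 deviations were closest to that of the same number.

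Of 2894 recomputed values for named genes, 2838 kept direction and call, 42 lost the call, 14 gained it and 0 reversed; of 1147 list medians, 68 moved by more than 1 SD. TRIM5 gained a call in 7 settings (adjusted p from 0.0254 to 0.0479), among them the replicate block (adjusted p = 0.0289), which changed no other call among named genes, and without LhTERTL_cre tumour 3 (adjusted p = 0.0338). The planned filter on levels and the second deposited table were not run, because the values hold no levels and both tables are equal.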

Other observations

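The smallest adjusted p values of all genes belonged to 2 genes expressed in nerve tissue, which were named after their values were seen. NEFL, the neurofilament light chain, read 0.31, 0.37, 0.22 and 0.29 in LhTERTL_cre tumours, against -1.96, -1.77, -2.13 and -1.99 in mock_cre tumours, and rose by 2.26 ± 0.10 (SE, adjusted p = 4.13e-10). AK5, an adenylate kinase of brain, read 1.01, 1.09, 1.15 and 0.87 in LhTERTL_cre tumours, against -1.63, -1.23, -1.75 and -1.31 in mock_cre tumours, and rose by 2.51 ± 0.13 (SE, adjusted p = 2.81e-09). Tumours of each group lay close together in both genes, and both also rose in LhTERTL against mock, by 0.76 and 0.98.

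Called genes were spread unevenly over the chromosomes. Of 753 genes on chromosome 4, 7.04% were called higher and 25.6% lower in LhTERTL_cre tumours, and of 753 on chromosome 9, 7.44% higher and 19.4% lower. The balance was reversed on chromosome 6, with 25.7% of 1050 genes higher and 9.33% lower, and on chromosome 10, with 24.9% of 731 genes higher and 7.39% lower. The pair LhTERTL against mock called 12.3% of all genes higher and 7.99% lower. In that pair chromosome 9 did not lean lower, with 103 of its 753 genes called higher and 41 lower. Chromosome 4 had 47 higher and 106 lower, chromosome 6 had 219 and 50, and chromosome 10 had 141 and 25. These shares are descriptions, since genes on a chromosome are not independent, and copy number was not measured.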
